A study of Mus musculus with 6 samples.

Results

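The scaffolds of the postsynaptic density that are encoded by the DLG, SHANK and HOMER gene families were followed in RNA of the mouse hypothalamus, in its paraventricular nucleus (PVH), which holds neurosecretory and pre-autonomic neurons. The 10 members (Dlg1, Dlg2, Dlg3, Dlg4, Shank1, Shank2, Shank3, Homer1, Homer2 and Homer3) were taken by gene name from 35148 genes in the deposited table, and all 10 passed the filter on low counts. Every mouse carried loxP-flanked Ruvbl2 alleles (Ruvbl2 fl/fl). An adeno-associated virus of serotype 2 was injected into the PVH, and RNA was taken 8 weeks later. The virus carried Cre recombinase with GFP in 3 libraries (AAV2-Cre-GFP) and GFP alone in 3 libraries (AAV2-GFP). Cre deletes the floxed part of Ruvbl2, an ATPase gene whose product works in chromatin remodelling and chaperone complexes, and the series description asks what RUVBL2 does in synaptic plasticity. The labels give neither the promoter that drives Cre, nor the animals' age, nor whether each library is 1 animal. The p-values therefore rest on library-to-library spread, which may be technical.

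The postsynaptic density is a protein sheet under the membrane of excitatory synapses. DLG proteins are membrane-associated guanylate kinases whose PDZ domains hold NMDA receptors and, through auxiliary proteins, AMPA receptors at the membrane. DLGAP adaptors link them to SHANK proteins deeper in the density. SHANK binds HOMER, which in turn ties in group I metabotropic glutamate receptors and the IP3 receptors of internal calcium stores.

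Total counts ran from 41890769 to 54702785 per library. Levels of Ruvbl2, the gene to be deleted, overlapped between the groups. It stood at 9.53, 9.10 and 9.51 FPKM (fragments per kilobase of gene model, scaled to depth by the authors) with AAV2-Cre-GFP, against 9.90, 7.36 and 8.72 FPKM with AAV2-GFP. Its log2 difference was 0.077 ± 0.11 (SE; edgeR adjusted p = 0.773), and its FPKM values gave p = 0.5 in an exact two-sided permutation test. The table gives 1 value per gene, so deleted and retained exons are not told apart, and directions below compare libraries as they are labelled. The libraries are therefore called Cre-labelled and GFP-labelled below. All 6 PVH markers (Sim1, Otp, Oxt, Avp, Crh and Trh) had counts in every library, and so did all 6 markers of the neighbouring thalamus. The PVH markers summed to 222, 250 and 521 CPM (counts scaled to the library total) in Cre-labelled libraries 1 to 3, against 286, 680 and 730 CPM in GFP-labelled libraries 1 to 3, and all 6 had log2 changes below 0 (median -0.76); their part in the scaffold differences was not tested. Transcripts of other organs stood apart in some libraries: 5 kidney genes summed to 391 and 432 CPM in Cre-labelled libraries 2 and 3, with 38.2 CPM or less in the others. For 4 testis genes the sum was 269 CPM in GFP-labelled library 1, with 1.36 CPM or less in the others, and for 4 skeletal muscle genes it was 110 CPM in Cre-labelled library 3, with 9.46 CPM or less in the others. The ribosomal RNA model CT010467 (ENSMUSG00000106106) stood at 17633, 13492 and 7301 CPM in Cre-labelled libraries 1 to 3. In GFP-labelled libraries 1 to 3 it stood at 2219, 2201 and 2072 CPM. Another gene model of the same name was not used. CT010467 was 1 of 5 genes followed for kinds of RNA, and all 5 had log2 changes above 0. The others were Lars2 (1.68), Rn7sk (1.74), mt-Rnr1 (0.32) and mt-Rnr2 (0.36). For 4 of the 5 the groups did not overlap, all higher in Cre-labelled libraries (11.2% of all genes). Their part in the scaffold differences was not tested.

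The 10 scaffolds spanned a wide range of levels. Over all 6 libraries Dlg4 averaged 32.4 FPKM and Shank1 31.2 FPKM, and these highest members overlapped, with Dlg4 above Shank1 in 4 of 6 libraries. Every library of Shank1 lay above every library of Dlg3, which averaged 15.5 FPKM. Then followed Shank3 at 14.0, Dlg2 at 12.9, Shank2 at 10.6 and Dlg1 at 9.20 FPKM, each overlapping its neighbour in this order. Homer2, at 3.37 FPKM, lay below every library of Dlg1 and above every library of the lowest members, Homer3 at 1.54 and Homer1 at 1.45 FPKM. The last pair overlapped, and Homer3 was the higher of them in 3 of 6 libraries. The order rests on the length used. The Homer2 exons span 12621 bases in all annotated transcripts together but 1634 in the principal transcript, and those of Dlg4 13251 and 3488 bases (GENCODE M21). As CPM per kilobase of principal transcript, Dlg4 was at 142 and Shank1 at 38.6, Homer2 came 4th at 30.1, Homer1 stood at 7.29 and Homer3 was last at 2.38.

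**Figure D1:**
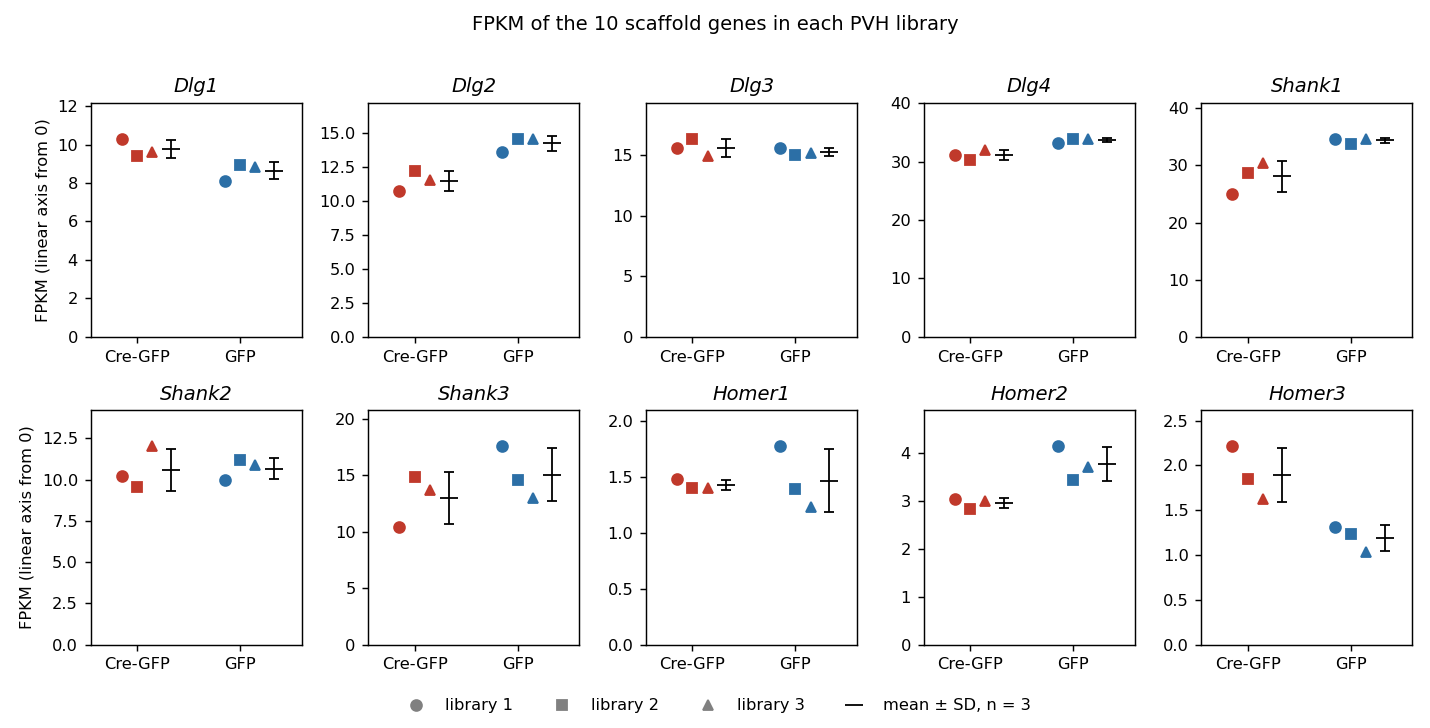
FPKM of each scaffold gene (linear vertical axes from 0, scaled per gene) in 3 Cre-labelled libraries (red, left) and 3 GFP-labelled libraries (blue, right), with mean ± SD beside them. Marker shapes give the library number; Dlg2, Dlg4, Shank1 and Homer2 are lower in every Cre-labelled library, and Dlg1 and Homer3 are higher.

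None of the 10 scaffold genes was called by edgeR (quasi-likelihood test, adjusted p under 0.05), in a comparison where 2 of 20865 genes tested (0.00959%) were called, both lower. At an unadjusted p under 0.05 edgeR found 6 of 10, against 17.2% of all genes tested, with 4 lower (9.11% of all genes) and 2 higher (8.11%). The same 6 genes had groups that did not overlap after TMM scaling, against 22.8% of all genes: Dlg2, Dlg4, Shank1 and Homer2 were lower in every Cre-labelled library than in any GFP-labelled one (4 of 10, against 11.5% of all genes), and Dlg1 and Homer3 were higher (2 of 10, against 11.2%). Of the 10 log2 differences 8 were below 0, against 51% of all genes, with a median of -0.11 over the scaffolds and -0.0058 over all genes tested. With libraries scaled to pan-neuronal genes, which shifts all genes together, 4 of 10 scaffolds and 4009 of 20865 genes were below 0, with medians of 0.12 over the scaffolds and 0.23 over all genes. DESeq2 called 4 of them lower, Dlg2, Dlg4, Shank1 and Homer2, and none higher. It called 8.03% of the 16455 genes to which it gave an adjusted p, 4.91% as lower and 3.12% as higher.

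**Figure D2:**
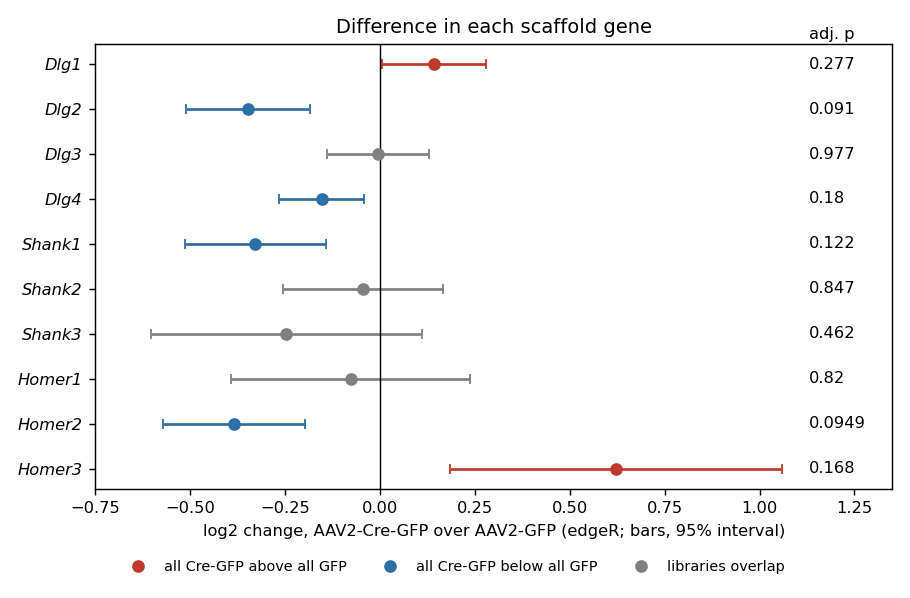
Log2 change of each scaffold gene, Cre-labelled over GFP-labelled libraries, from edgeR (points) with 95% intervals (bars) and the adjusted p at the right. Colour shows whether the 3 libraries of each group overlap; intervals of Dlg2, Dlg4, Shank1 and Homer2 lie below 0, those of Dlg1 and Homer3 above 0, and no adjusted p is under 0.05.

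The DLG genes lie on the plus strand of GRCm38, Dlg1 (ENSMUSG00000022770) at chr16:31663443-31875129, Dlg2 (ENSMUSG00000052572) at chr7:90476672-92449247, Dlg3 (ENSMUSG00000000881) at chrX:100767722-100818410 and Dlg4 (ENSMUSG00000020886) at chr11:70016942-70047522. Of these, Dlg2 differed most. It encodes PSD-93, which anchors NMDA receptors and potassium channels. Its level was 10.7, 12.2 and 11.6 FPKM in Cre-labelled libraries 1 to 3, against 13.6, 14.6 and 14.6 FPKM in GFP-labelled libraries 1 to 3. The groups did not overlap, with all Cre-labelled values the lower ones, and library 1 was the lowest of each group. The ratio was 0.786, or -0.35 ± 0.071 in log2 (SE; edgeR adjusted p = 0.091; DESeq2 adjusted p = 0.000131). Without Cre-labelled library 1, the library with the most CT010467, it was -0.28 (edgeR adjusted p = 0.0958).

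Dlg4 encodes PSD-95, the most abundant scaffold of the mature density. It stood at 31.1, 30.2 and 32.0 FPKM in Cre-labelled libraries, against 33.2, 33.8 and 33.9 FPKM in GFP-labelled libraries. The groups did not overlap, although the gap between the nearest libraries was small beside the level. The log2 change was -0.15 ± 0.048 (SE; edgeR adjusted p = 0.18; DESeq2 adjusted p = 0.0219), and 0.082 with libraries scaled to pan-neuronal genes. From 19974 to 26919 counts lay behind each value, so counting error was small.

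Dlg1 and Dlg3 did not go the same way as Dlg2. Dlg1 encodes SAP97, which is also found at epithelial cell contacts. It stood at 10.3, 9.41 and 9.60 FPKM in Cre-labelled libraries, against 8.12, 8.93 and 8.83 FPKM in GFP-labelled libraries. All 3 Cre-labelled values were the higher ones, by 0.14 ± 0.059 in log2 (SE; edgeR adjusted p = 0.277; DESeq2 adjusted p = 0.217). Dlg3, the X-linked gene of SAP102, a scaffold known from early synapses, stood at 15.6, 16.4 and 14.9 FPKM in Cre-labelled libraries, against 15.6, 15.0 and 15.2 FPKM in GFP-labelled libraries. These libraries overlapped, and the 95% interval of the log2 change ran from -0.14 to 0.13 (edgeR adjusted p = 0.977).

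The starts of Dlg1 and Dlg2 are shown because the log2 changes of these relatives had opposite signs, with neither gene called by edgeR. Any part of these sequences in the differences was not tested. Each line gives the 250 bases before a transcript start (RefSeq, GRCm38.p6), 5′ to 3′ on the gene's strand, with capitals for matches on either strand to the cAMP response element (TGACGTCA) or its start (TGACGT), the GC box (GGGCGG), the TATA box (TATAAA) or the E-box (CACGTG). The Dlg1 window lies at chr16:31663685-31663934 (plus strand) and the Dlg2 window at chr7:91090536-91090785 (plus strand).
Dlg1: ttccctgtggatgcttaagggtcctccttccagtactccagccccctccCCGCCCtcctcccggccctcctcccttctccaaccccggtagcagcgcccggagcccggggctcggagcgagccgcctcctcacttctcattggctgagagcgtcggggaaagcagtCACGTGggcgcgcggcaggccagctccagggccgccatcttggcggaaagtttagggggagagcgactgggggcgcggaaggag
Dlg2: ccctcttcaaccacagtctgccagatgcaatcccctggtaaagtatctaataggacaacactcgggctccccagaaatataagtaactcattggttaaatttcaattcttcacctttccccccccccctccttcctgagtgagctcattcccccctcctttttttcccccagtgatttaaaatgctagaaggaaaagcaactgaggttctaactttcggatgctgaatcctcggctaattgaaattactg
The Dlg1 window was 68.8% G and C and the Dlg2 window 45.2%, beside a median of 52.4% over all 32817 windows. Dlg1 held 1 GGGCGG and 1 CACGTG, which occur in 32.7% and 6.02% of all windows. Dlg2 held none of the 5 words; RefSeq lists 3 starts for Dlg2 and 4 for Dlg1, and the window nearest the principal transcript was taken.

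All 3 SHANK genes had log2 changes below 0 (Shank2 above 0, at 0.19, with libraries scaled to pan-neuronal genes), with very different spreads. They lie on the plus strand of GRCm38, Shank1 (ENSMUSG00000038738) at chr7:44310253-44360572, Shank2 (ENSMUSG00000037541) at chr7:144001928-144424494 and Shank3 (ENSMUSG00000022623) at chr15:89499623-89560261. Shank1, whose product is a large ankyrin-repeat scaffold of dendritic spines, stood at 25.1, 28.7 and 30.5 FPKM in Cre-labelled libraries 1 to 3, against 34.7, 33.8 and 34.6 FPKM in GFP-labelled libraries. The groups did not overlap. Among Cre-labelled libraries Shank1 was lowest where CT010467 was highest and highest where CT010467 was lowest; the part of that RNA in the difference was not tested. The ratio was 0.797, or -0.33 ± 0.081 in log2 (SE; edgeR adjusted p = 0.122; DESeq2 adjusted p = 0.00181). Without Cre-labelled library 1 the change was -0.23 (edgeR adjusted p = 0.106), and with that library alone against the 3 GFP-labelled ones it was -0.50.

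Shank3, the SHANK gene deleted in Phelan-McDermid syndrome in humans, stood at 10.4, 14.8 and 13.7 FPKM in Cre-labelled libraries 1 to 3, against 17.6, 14.6 and 13.01 FPKM in GFP-labelled libraries 1 to 3. The groups overlapped, with Cre-labelled library 1 lowest and GFP-labelled library 1 highest of the 6. Markers of the thalamus (6 genes) summed to 404, 636 and 511 CPM in Cre-labelled libraries 1 to 3, against 780, 651 and 549 CPM in GFP-labelled libraries 1 to 3, with the same lowest and highest libraries; their part in the Shank3 values was not tested. The log2 change of Shank3 was -0.25 ± 0.15 (SE; edgeR adjusted p = 0.462). It was -0.092 without Cre-labelled library 1 and -0.12 without GFP-labelled library 1.

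Shank2 encodes the family member that also occurs in epithelia. It stood at 10.2, 9.57 and 12.03 FPKM in Cre-labelled libraries, against 9.95, 11.2 and 10.9 FPKM in GFP-labelled libraries. Cre-labelled libraries held both the highest and the lowest value. The 95% interval of its log2 change ran from -0.26 to 0.17 (edgeR adjusted p = 0.847).

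The HOMER genes did not share a direction. In GRCm38 they are Homer1 (ENSMUSG00000007617) at chr13:93299635-93405129, Homer2 (ENSMUSG00000025813) at chr7:81600481-81707527 and Homer3 (ENSMUSG00000003573) at chr8:70282827-70294361, with Homer2 on the minus strand and the others on the plus strand. Homer2, one of the long coiled-coil adaptors of group I metabotropic receptors, stood at 3.05, 2.84 and 3.01 FPKM in Cre-labelled libraries, against 4.15, 3.45 and 3.70 FPKM in GFP-labelled libraries. The Cre-labelled values lay close together and below all GFP-labelled ones. The ratio was 0.767, or -0.38 ± 0.081 in log2 (SE; edgeR adjusted p = 0.0949; DESeq2 adjusted p = 0.00404), and with 1 library left out it ran from -0.44 to -0.31.

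Homer3, known best from cerebellar Purkinje cells, stood at 2.22, 1.85 and 1.62 FPKM in Cre-labelled libraries 1 to 3, against 1.31, 1.23 and 1.03 FPKM in GFP-labelled libraries 1 to 3. Every Cre-labelled library was above every GFP-labelled one. The ratio was 1.54 and the log2 change 0.62 ± 0.19 (SE; edgeR adjusted p = 0.168; DESeq2 adjusted p = 0.0699), from 205 to 373 counts per library. This was the least counted member. Ddx49, an RNA helicase gene on the opposite strand, covers 874 (25.4%) of the exon bases of Homer3 and had 1200 to 1618 counts, and whether strand was used in counting is not given in the sources used here. Ddx49 itself differed by -0.0031 in log2 (edgeR adjusted p = 0.988). Ependymal markers (4 genes) summed to 191, 137 and 151 CPM in Cre-labelled libraries, against 101, 110 and 112 CPM in GFP-labelled libraries. All 4 had groups that did not overlap, each higher in Cre-labelled libraries (11.2% of all genes). CT010467 had the same order among Cre-labelled libraries as Homer3. The part of these markers and of that RNA in the Homer3 difference was not tested.

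Homer1 is the activity-regulated member. Neurons make a short form, Homer1a, after strong activity, and it competes with the long forms. It stood at 1.49, 1.40 and 1.40 FPKM in Cre-labelled libraries, against 1.78, 1.40 and 1.23 FPKM in GFP-labelled libraries, which spread further and enclosed the Cre-labelled values. The 95% interval of its log2 change ran from -0.39 to 0.24 (edgeR adjusted p = 0.82). The value sums short and long forms and does not separate them. Of 9 other activity-induced genes 8 had log2 changes above 0, with a median of 0.63, where 51% of all genes were below 0. The groups of 5 overlapped, and 3 were higher without overlap (11.2% of all genes). The remaining gene, Bdnf, was lower without overlap (11.5% of all genes), at -0.44 in log2 (edgeR adjusted p = 0.24). None of the 9 passed in edgeR, and DESeq2 called 2 of them higher, Junb and Npas4 (3.12% of all genes). Junb, an immediate early transcription factor, had the smallest p of them, at 18.4 ± 4.74 FPKM in Cre-labelled and 8.07 ± 1.77 FPKM in GFP-labelled libraries (SD, n = 3 each; edgeR adjusted p = 0.085). Npas4, which encodes a neuronal activity-induced factor, differed by 0.43, Fosb by 1.41 and Egr1 by 0.63 in log2 (edgeR adjusted p between 0.136 and 0.225).

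The starts of the 3 HOMER genes are shown because 1 was lower, 1 higher and 1 overlapping, with the same marking as for Dlg1 and Dlg2. Here too, any part of the sequences in the differences was not tested. The windows lie at chr13:93303507-93303756 (plus strand) for Homer1, chr7:81706926-81707175 (minus strand) for Homer2 and chr8:70282749-70282998 (plus strand) for Homer3.
Homer1: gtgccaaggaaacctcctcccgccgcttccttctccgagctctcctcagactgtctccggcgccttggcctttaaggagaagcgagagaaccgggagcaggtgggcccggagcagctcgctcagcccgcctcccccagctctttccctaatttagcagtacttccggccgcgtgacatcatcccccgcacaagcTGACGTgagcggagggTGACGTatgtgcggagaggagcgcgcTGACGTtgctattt
Homer2: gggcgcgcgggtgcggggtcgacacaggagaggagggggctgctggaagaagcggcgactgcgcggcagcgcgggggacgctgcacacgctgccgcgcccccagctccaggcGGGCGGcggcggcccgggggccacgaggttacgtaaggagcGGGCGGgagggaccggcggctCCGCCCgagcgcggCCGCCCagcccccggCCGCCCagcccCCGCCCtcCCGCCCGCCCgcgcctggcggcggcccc
Homer3: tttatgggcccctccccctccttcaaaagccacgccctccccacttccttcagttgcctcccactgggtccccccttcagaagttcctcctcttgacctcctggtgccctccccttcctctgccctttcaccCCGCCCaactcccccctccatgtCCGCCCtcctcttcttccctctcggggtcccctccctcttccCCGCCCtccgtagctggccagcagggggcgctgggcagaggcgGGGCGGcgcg
Homer1 held 3 copies of TGACGT. This word occurs in 6.46% of all windows and the whole element in 1.55%, and Homer1 had no match to the whole element. Its start lies 1402 bases from that of the principal transcript. Homer2 held 8 copies of GGGCGG, some of them overlapping, and Homer3 4. Neither had a match to the other words.

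Within a family the share of each member does not depend on how libraries are scaled to each other, but it does depend on the gene length that FPKM divides by. Homer3 made up 30.0 ± 2.96% of the summed HOMER FPKM in Cre-labelled and 18.6 ± 1.55% in GFP-labelled libraries, and Homer2 made up 47.2 ± 2.41% in Cre-labelled and 58.7 ± 2.92% in GFP-labelled libraries (SD, n = 3 each). Homer1 held 22.8 ± 0.642% in Cre-labelled and 22.7 ± 1.96% in GFP-labelled libraries. As shares of counts, without division by length, the differences (Cre-labelled minus GFP-labelled) were 4.72 percentage points for Homer3, -7.47 for Homer2 and 2.75 for Homer1, beside 11.5, -11.5 and 0.038 as shares of FPKM. In the DLG family Dlg1 made up 15.2%, 13.8% and 14.1% in Cre-labelled libraries, against 11.5%, 12.3% and 12.2% in GFP-labelled libraries. Dlg2 made up 16.9 ± 1.05% in Cre-labelled and 19.8 ± 0.488% in GFP-labelled libraries. Of the SHANK sum, Shank1 made up 54.3 ± 0.433% in Cre-labelled and 57.2 ± 1.78% in GFP-labelled libraries. For 5 members (Homer3, Homer2, Dlg1, Dlg2 and Shank1) the groups did not overlap. Each gave an exact two-sided permutation p of 0.1, the smallest that 3 libraries against 3 allow (0.2 adjusted over the 10 shares). The shares of a family add up to a fixed total, so the opposite Homer2 and Homer3 differences are not separate results. For this measure there is no share over all genes to set beside the count. The shares of Dlg3, Dlg4, Shank2, Shank3 and Homer1 overlapped. The Dlg4 difference was -1.15 percentage points as a share of FPKM and 0.083 as a share of counts. Summed over its members, the DLG family stood at 68.0 ± 0.248 FPKM in Cre-labelled and 71.8 ± 1.08 FPKM in GFP-labelled libraries (SD, n = 3 each). The SHANK family stood at 51.7 ± 5.39 FPKM in Cre-labelled and 60.1 ± 1.93 FPKM in GFP-labelled libraries. Neither sum overlapped between groups (exact two-sided permutation p = 0.1 for each). Unlike the shares, these sums depend on how libraries are scaled to each other. For sums, too, there is no share over all genes to set beside them. The HOMER sums overlapped, at 6.29 ± 0.397 FPKM in Cre-labelled and 6.43 ± 0.705 FPKM in GFP-labelled libraries (exact two-sided permutation p = 0.9).

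**Figure D3:**
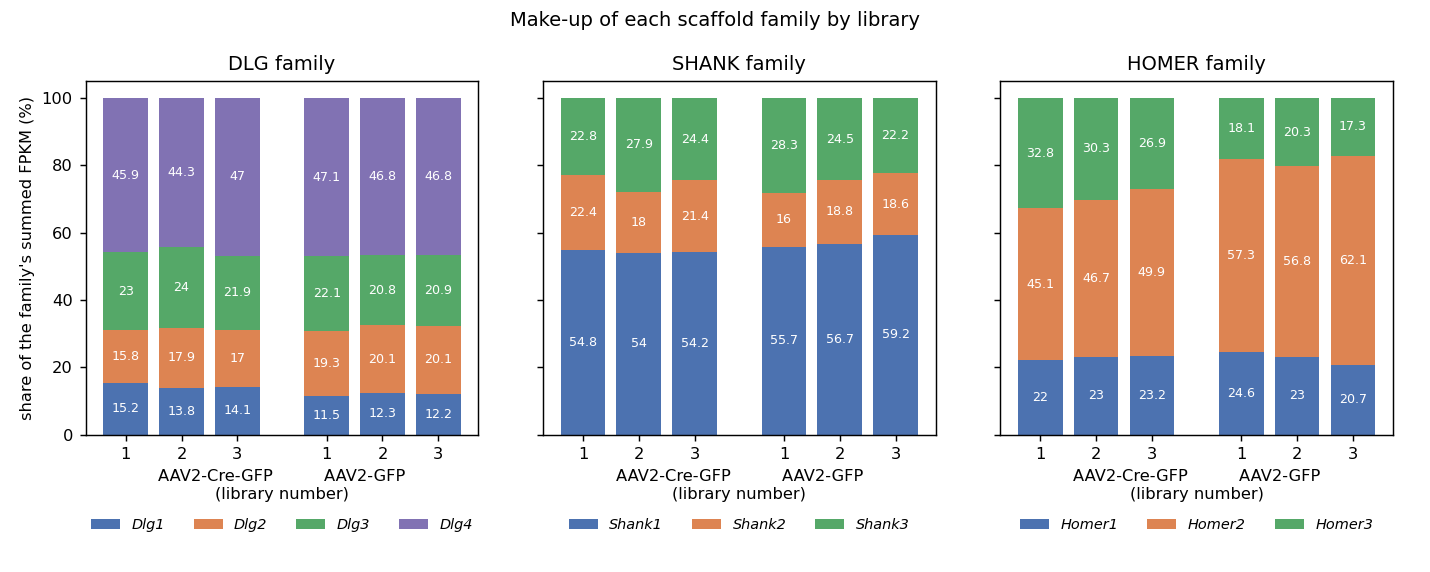
Share of each member in the summed FPKM of its family (vertical axis, percent) in every library, Cre-labelled on the left and GFP-labelled on the right of each panel. The Homer3 segment is 26.9% to 32.8% in Cre-labelled and 17.3% to 20.3% in GFP-labelled libraries, and the Homer2 segment is 45.1% to 49.9% in Cre-labelled and 56.8% to 62.1% in GFP-labelled libraries.

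Of 90 partner genes 68 had log2 changes below 0, against 51% of all genes, and none passed in edgeR. With libraries scaled to pan-neuronal genes 19 of 90 were below 0, beside 4009 of all 20865 genes. Under that scaling the medians of the lists named below were also above 0, between 0.023 and 0.24 for the 6 lists other than the activity-induced genes, beside 0.23 for all genes. Of 23 scaffold adaptors, among them the DLGAP, MAGI and LIN7 genes, 21 had log2 changes below 0 (median -0.21), 11 had groups that did not overlap, all lower (11.5% of all genes), and DESeq2 called 8 lower (4.91% of all genes). Cask, a kinase-like scaffold shared by both sides of the synapse, stood at 7.57 ± 0.155 FPKM in Cre-labelled and 9.11 ± 0.386 FPKM in GFP-labelled libraries (SD, n = 3 each; edgeR adjusted p = 0.0793). Magi3 (-0.27), Begain (-0.23) and Tanc2 (-0.22) came next in log2 change by p (edgeR adjusted p = 0.0897, 0.117 and 0.145). Of 19 membrane partners 16 were below 0 (median -0.18), 13 had groups that did not overlap, all lower (11.5% of all genes), and DESeq2 called 6 lower (4.91% of all genes). Grin2a, the GluN2A subunit that binds DLG proteins, stood at 1.87 ± 0.0408 FPKM in Cre-labelled and 2.73 ± 0.0777 FPKM in GFP-labelled libraries (SD, n = 3 each; edgeR adjusted p = 0.0514). Grin2b and Grin2d, which encode further NMDA receptor subunits, differed by -0.37 and -0.41, and Cacng2, the AMPA receptor auxiliary protein stargazin, by -0.22 in log2 (edgeR adjusted p = 0.0705, 0.118 and 0.126).

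Of 15 signalling enzymes 13 were below 0 (median -0.16), and the groups of 2 did not overlap after TMM scaling, a share near the 11.5% of all genes that were lower in this way. These were Kalrn at -0.23 and Camk2b, the beta subunit of CaMKII, at -0.17 in log2 (edgeR adjusted p = 0.152 and 0.184); in FPKM Kalrn overlapped, at 3.72 to 4.29 in Cre-labelled and 4.26 to 4.73 in GFP-labelled libraries. Iqsec1 and Iqsec2, exchange factors for ARF GTPases, stood at -0.22 and -0.16 (edgeR adjusted p = 0.246 and 0.265). Of 8 HOMER ligands 6 were below 0 (median -0.12), and all 8 overlapped between groups. Grm5, the metabotropic receptor mGluR5, differed by -0.31, Trpc1 by -0.19, the IP3 receptor gene Itpr1 by -0.15 and Trpc4 by 0.17 in log2 (edgeR adjusted p between 0.314 and 0.595). Of 8 genes of palmitoylation, the lipid attachment that holds PSD-95 at the membrane, 7 were below 0 (median -0.12). Zdhhc2, a palmitoyltransferase of PSD-95, stood at 7.71 ± 0.471 FPKM in Cre-labelled and 8.90 ± 0.22 FPKM in GFP-labelled libraries (SD, n = 3 each; edgeR adjusted p = 0.158), and Zdhhc14, Zdhhc8 and Zdhhc3 differed by -0.22, -0.13 and -0.11 in log2. The 8 genes of the actin link had 4 values below and 4 above 0 (median 0.0042); those with the smallest p were Cyfip2 at -0.15, Wasf1 at -0.23, Cyfip1 at 0.064 and Dbn1 at 0.087.

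**Figure D4:**
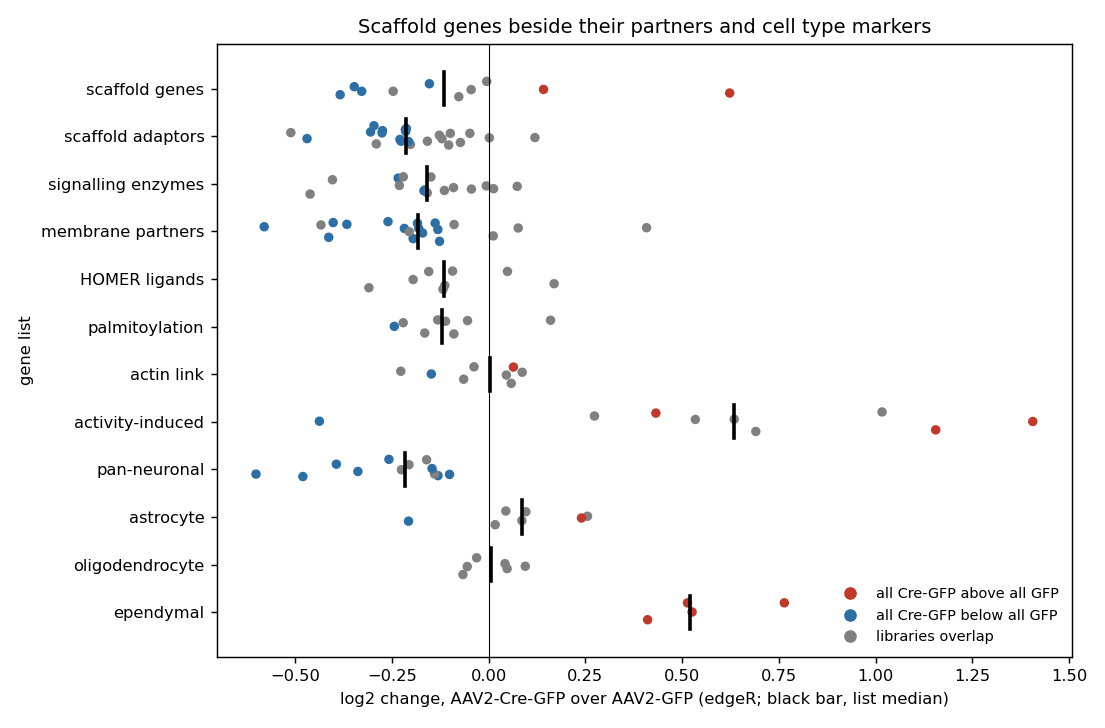
Log2 change, Cre-labelled over GFP-labelled libraries (horizontal axis, edgeR), 1 row of points per list with a black bar at the list median. Shown are every scaffold gene, every partner gene and the pan-neuronal, astrocyte, oligodendrocyte and ependymal markers. The other marker lists, among them the PVH, thalamus, glutamatergic and GABAergic ones, are not drawn. Medians are -0.11 for the scaffolds, -0.21 for the adaptors, -0.18 for the membrane partners, -0.22 for pan-neuronal and 0.52 for ependymal genes.

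Among markers of neurons, all 12 pan-neuronal genes had log2 changes below 0 (median -0.22). The groups of 8 did not overlap, all lower (11.5% of all genes). They summed to between 5033 and 5379 CPM in Cre-labelled and between 5955 and 6130 CPM in GFP-labelled libraries, with no marker at 0 in any library. The 3 glutamatergic markers (vesicular glutamate transporters) were also below 0 (median -0.41), at 129 to 233 CPM in Cre-labelled and 202 to 262 CPM in GFP-labelled libraries. The 3 GABAergic markers stood close to 0 (median -0.050), at 1133 to 1496 CPM in Cre-labelled and 1227 to 1375 CPM in GFP-labelled libraries. The part of these cell types in the scaffold differences was not tested. In bulk tissue, fewer cells of a type and less RNA per cell cannot be told apart. Scaling libraries to these 12 genes moves the median of all genes to 0.23 in log2. With it 4 scaffolds stayed below 0, namely Dlg2 (-0.12), Shank1 (-0.098), Shank3 (-0.022) and Homer2 (-0.15), none of them called. Dlg1 at 0.38 and Homer3 at 0.86 were called higher (edgeR adjusted p = 0.0336 and 0.042), in a fit that called 9.56% of all genes. Beside the shifted median of all genes, Dlg1 and Homer3 were above, Dlg3 (0.23) was about level and the other members were below, as with TMM scaling. Astrocyte markers had 6 of 7 values above 0 (median 0.086) and summed to between 4099 and 4469 CPM in Cre-labelled and between 4081 and 4198 CPM in GFP-labelled libraries. Oligodendrocyte markers had 3 of 6 above 0 (median 0.0058), and their sums overlapped.

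Over the 6 libraries the mean profile of the 10 scaffolds, as log2 CPM centred on each gene's mean, was -0.085, -0.015 and -0.024 in Cre-labelled libraries 1 to 3 and 0.098, 0.031 and -0.0049 in GFP-labelled libraries 1 to 3. Cre-labelled library 1 was lowest and GFP-labelled library 1 highest. Single members departed from this mean. In Cre-labelled library 1 Shank3 was at -0.45 and Shank1 at -0.35, but Homer3 at 0.52 and Dlg1 at 0.12. Likeness was taken to the mean profile, not to any 1 scaffold, among 14270 other genes averaging 1 FPKM or more. The closest by root mean square difference were Nup50 (0.0143), Wdr75 (0.0147), Ccdc124 (0.0197), Vps52 (0.0199) and Med24 (0.0212), in log2 units. The median over those 14270 genes was 0.15.

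Leaving out the 3 libraries with kidney or testis transcripts (Cre-labelled 2 and 3 and GFP-labelled 1) left 1 Cre-labelled library, the one with the most CT010467, against 2 GFP-labelled ones. In that fit, which called 4.81% of all genes, Dlg2 differed by -0.50, Shank1 by -0.50 and Shank3 by -0.46 in log2 (edgeR adjusted p = 0.00138, 0.00104 and 0.00823), with the lone library assumed to vary like the others. Homer2 stood at -0.29, Dlg4 at -0.18, Dlg1 at 0.16 and Homer3 at 0.91, none of them called. With GFP-labelled library 1 kept in, no scaffold was called.

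**Figure D5:**
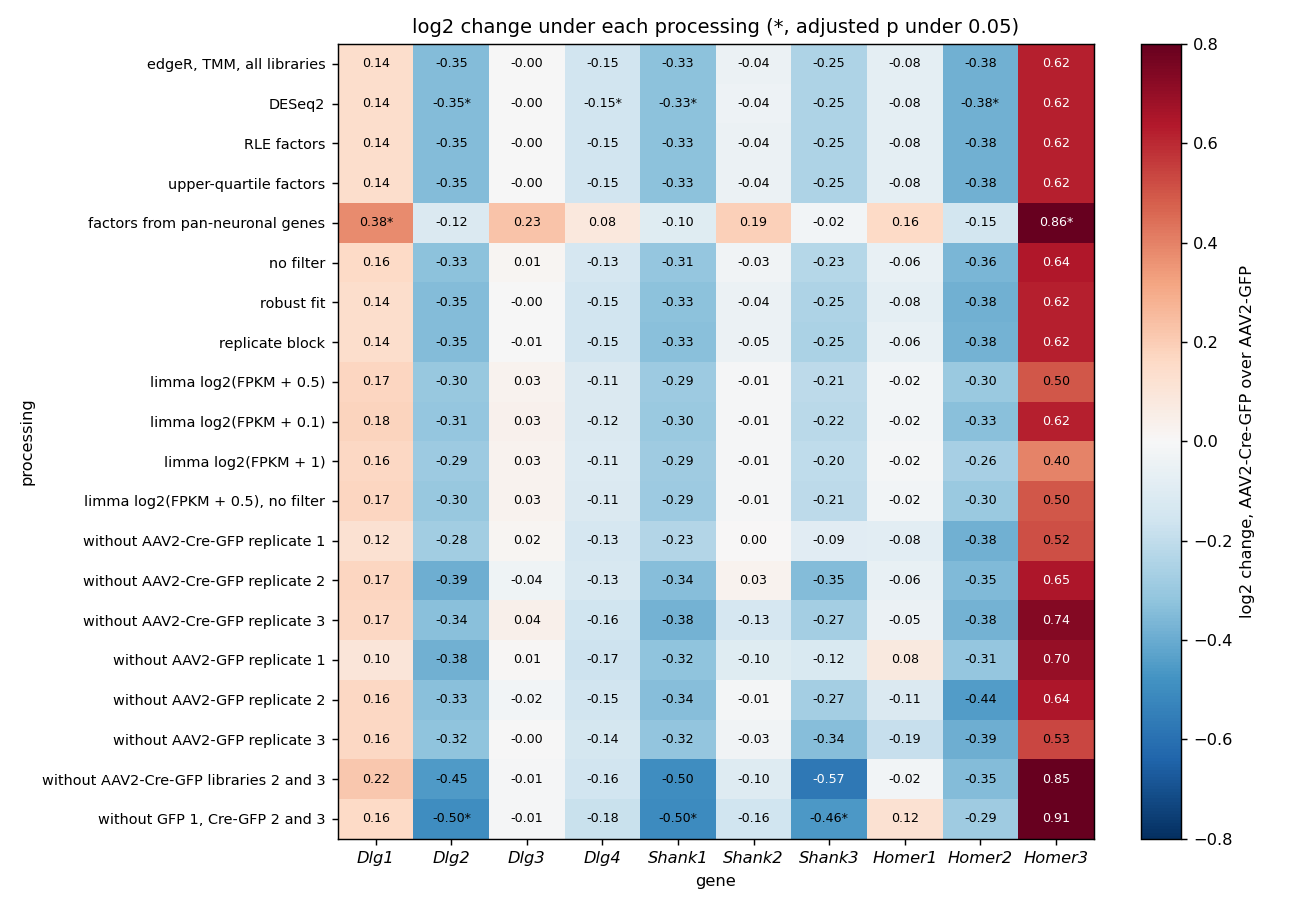
Log2 change of each scaffold gene (columns) under each processing or set of libraries (rows), with the value printed, its colour on the scale at the right, and an asterisk where the adjusted p is under 0.05. Dlg2, Shank1 and Homer2 stay below 0 and Dlg1 and Homer3 above 0 in all rows shown.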

How the data were processed

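Poly(A) RNA was sequenced as stranded (dUTP), paired-end libraries with molecular identifiers, according to the labels' protocols. The submitters' processing notes name HISAT2, StringTie and cutadapt. Tool versions, strand use in counting and use of the identifiers: not given in the sources used here. The notes name mm9, but 91.4% of 35024 shared gene identifiers have the start and end of GENCODE M21 (GRCm38), so coordinates are given as GRCm38. The authors deposited whole-number counts per gene without normalization, and FPKM values scaled by gene length and depth.

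Counts were tested with edgeR 4.0.16 in R 4.3.3 (quasi-likelihood test, TMM, filterByExpr at 10 counts, 20865 genes, two-sided, Benjamini-Hochberg over all genes, threshold 0.05), without covariates. SEs come from the F statistic. The common biological coefficient of variation was 27.1%. All pairs of libraries differed by more than counting noise (chi-square per gene 11.4 or more). Alternatives were DESeq2 1.42.0, other scalings, filters, a replicate block, family shares of counts, limma 3.58.1 on log2(FPKM + 0.1, 0.5 or 1), and libraries left out. Members, lists and alternatives were chosen with earlier results of these data known, except the principal-transcript length, the order within each group, the base words in promoters and Ddx49, chosen after these values were seen. All members and Ruvbl2 were named, with up to 4 genes of smallest p per partner list and the 5 genes nearest in profile. Promoter windows were found for 8 of 10 members. No per-sample column was left unused. At most 3.37% of the 31-base words of a scaffold gene's transcripts (Dlg4) occur in those of another gene.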

Additional observations from a re-analysis of the deposited data

How the results depend on the processing

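Dlg1, Dlg2, Shank1, Shank3, Homer2 and Homer3 kept their direction under every alternative run. The calls depended on the test. The count over all genes was 2 in edgeR, 1322 with DESeq2, 9 with RLE or upper-quartile factors, 1995 with pan-neuronal factors, 22 with the robust fit, 1 without a filter, 15 with limma at a pseudocount of 0.1 and 1 with limma without a filter. It was 4 without Cre-labelled libraries 2 and 3, 1059 when GFP-labelled library 1 was left out as well, and 1 to 296 with 1 library left out, the highest without Cre-labelled library 1. Scaffold genes past the threshold numbered 0 in edgeR, 4 with DESeq2, 2 with pan-neuronal factors and 3 (Dlg2, Shank1 and Shank3) without the 3 libraries holding kidney or testis transcripts (GFP-labelled 1, Cre-labelled 2 and 3), where a lone library is assumed to vary like the others. Of 90 partner genes, those past the threshold numbered 0 in edgeR, 18 with DESeq2 and 6 with pan-neuronal factors. The last 2 settings called 8.03% and 9.56% of all genes. Partner genes past the threshold numbered 1 with RLE factors, upper-quartile factors or the robust fit, and 0 to 3 with 1 library left out. The scaffold median was 0.12 with pan-neuronal factors, -0.067, -0.069 and -0.065 with limma at pseudocounts of 0.5, 0.1 and 1 (-0.067 without a filter), -0.17 without those 3 libraries and from -0.16 to -0.088 with 1 library left out.

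Changes of sign were as follows. Dlg3 was at 0.23 with pan-neuronal factors, 0.014 without a filter and 0.031, 0.031, 0.030 and 0.031 with limma at 0.5, 0.1, 1 and without a filter. Dlg4 was at 0.082, Shank2 at 0.19 and Homer1 at 0.16 with pan-neuronal factors, a scaling that moved the median of all genes to 0.23, and Homer1 at 0.12 without those 3 libraries. With 1 library left out Dlg3 ran from -0.036 to 0.042, Shank2 from -0.13 to 0.029, Homer1 from -0.19 to 0.080 and Ruvbl2 from -0.029 to 0.18. As shares of counts in place of FPKM, the family share differences moved to 4.72 (Homer3), -7.47 (Homer2), 2.75 (Homer1) and 0.083 (Dlg4) percentage points; the other 6 moved by less than the spread between libraries. In the order of levels 8 members changed rank with principal transcript lengths, 4 in GFP-labelled libraries alone and 0 to 2 with 1 library left out.

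Same-numbered libraries share only a number: their deviations correlated at -0.044, 0.012 and -0.022, and no Cre-labelled library correlated best with its own number. With the replicate block 3 genes passed, no scaffold among them. The causes of these shifts were not tested. Counting error was largest for Homer3, with 205 counts or more per library.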
